A study of Danio rerio with 40 samples.

Results

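A set of 34 sporadically read miRNAs of zebrafish sperm is described here, out of the 346 rows of the miRNA table. A row was a member when it held no read in 20 or more of the 39 libraries and carried the number of none of the large, well-described miRNA families, let-7 included. Of the 172 rows outside those families 34 met the rule, against 27 rows of the named families that were read as seldom. The members were thus chosen by the read values themselves, so their rarity is a description. The member just inside the limit was dre-miR-2187-5p, without a read in 20 libraries. No row outside the families had 19 such libraries, and the nearest ones were dre-miR-137-5p with 18, dre-miR-214 with 17 and dre-miR-2187-3p with 16. In 3 pairs both rows held the same values in every library (dre-miR-126a-5p and dre-miR-126b-5p, dre-miR-212 and dre-miR-212-3p, dre-miR-301b-3p and dre-miR-301c-3p), which left 31 distinct sets of values.

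The sperm came from adult male zebrafish (Danio rerio, AB wild-type strain), sampled 1 by 1 after 2 weeks in tanks with either 2 males and 1 female (High, strong male-male competition) or 1 male and 2 females (Low). Males that began in High gave the High1 samples and, after changing tanks, the Low2 samples. Males that began in Low gave Low1 and then High2. High1, High2 and Low1 had 10 libraries each and Low2 had 9, all from wild-type fish, and the question was whether the miRNA content of sperm differed with competition. Groups followed the sample titles, whose codes Ha, Lb, La and Hb were read here as High1, High2, Low1 and Low2. The treatment field of the public record puts 22 of the 39 libraries in another group. It names most Lb libraries Low2 and most Hb libraries High2. It also moves some Low1 libraries and High1_9, so the differences of every comparison rest on this reading. Under the labels of the record, some of the differences named below changed sign and others kept it. Libraries are named by group and number, as in High2_2.

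A miRNA gene is transcribed as a hairpin, from which Dicer cuts a duplex of both arms. One arm, the guide, is usually loaded into an Argonaute protein and directs it to matching messenger RNAs, whereas the other, the passenger arm, is mostly degraded. The 5p or 3p in a name gives the side of the hairpin. Mature sperm is transcriptionally silent, and its small RNAs are known to include RNA made during spermatogenesis and, in mammals, RNA taken up from the reproductive tract.

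The libraries held from 79435 to 8447142 miRNA reads (median 2309542), and 4 of them held fewer than 500000. The value of a single read therefore differed widely: it stood for 0.225 normalised reads in High2_6 and for 36.8 in Low1_1. A count of 0 allowed up to 0.355 RPM (reads per 1000000 miRNA reads) in Low1_7 and up to 37.8 in Low1_1 (3 reads over the depth of the library). These limits cover counting error only, because the libraries carried no molecular identifiers and copies of 1 molecule could be counted repeatedly. Earlier results of these data had set Low2_6, Low2_7, High1_7 and High1_8 apart from the rest, and results that rest on them are given with and without them. Marker miRNAs of several tissues, the gonad among them, had reads in every library when the rows of a tissue were summed. Single rows were often absent: 1 of 7 blood rows and 2 of 6 muscle rows were read in all libraries. The summed normalised reads of the epithelial rows (miR-200, miR-203 and miR-205) ran from 19710 to 130400 over the libraries. Those of the neural rows (miR-9 and miR-124) ran from 7211 to 24160, those of the gonad rows (miR-202) from 685 to 17750, those of the muscle rows from 204.3 to 2488 and those of the blood rows from 248 to 2760. The share of the members' reads that came from cells other than sperm was not tested.

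All members together had 510 reads among 104916599, or 4.86 RPM, when rows of equal values were counted once. Their median was 12.5 reads over all libraries, against 4327 for the other rows outside the families, a difference that the rule itself made. A read was present in 22.7% of the 1326 member values. Of the 269 distinct values with a read, 57.6% were a single read and 14 were 5 reads or more. The highest was 16 reads of dre-miR-126a-5p in Low1_4. Thus 13 members were read in 10 or more libraries, 13 in 6 to 9 and 8 in 5 or fewer, and every member had a read somewhere.

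**Figure D1:**
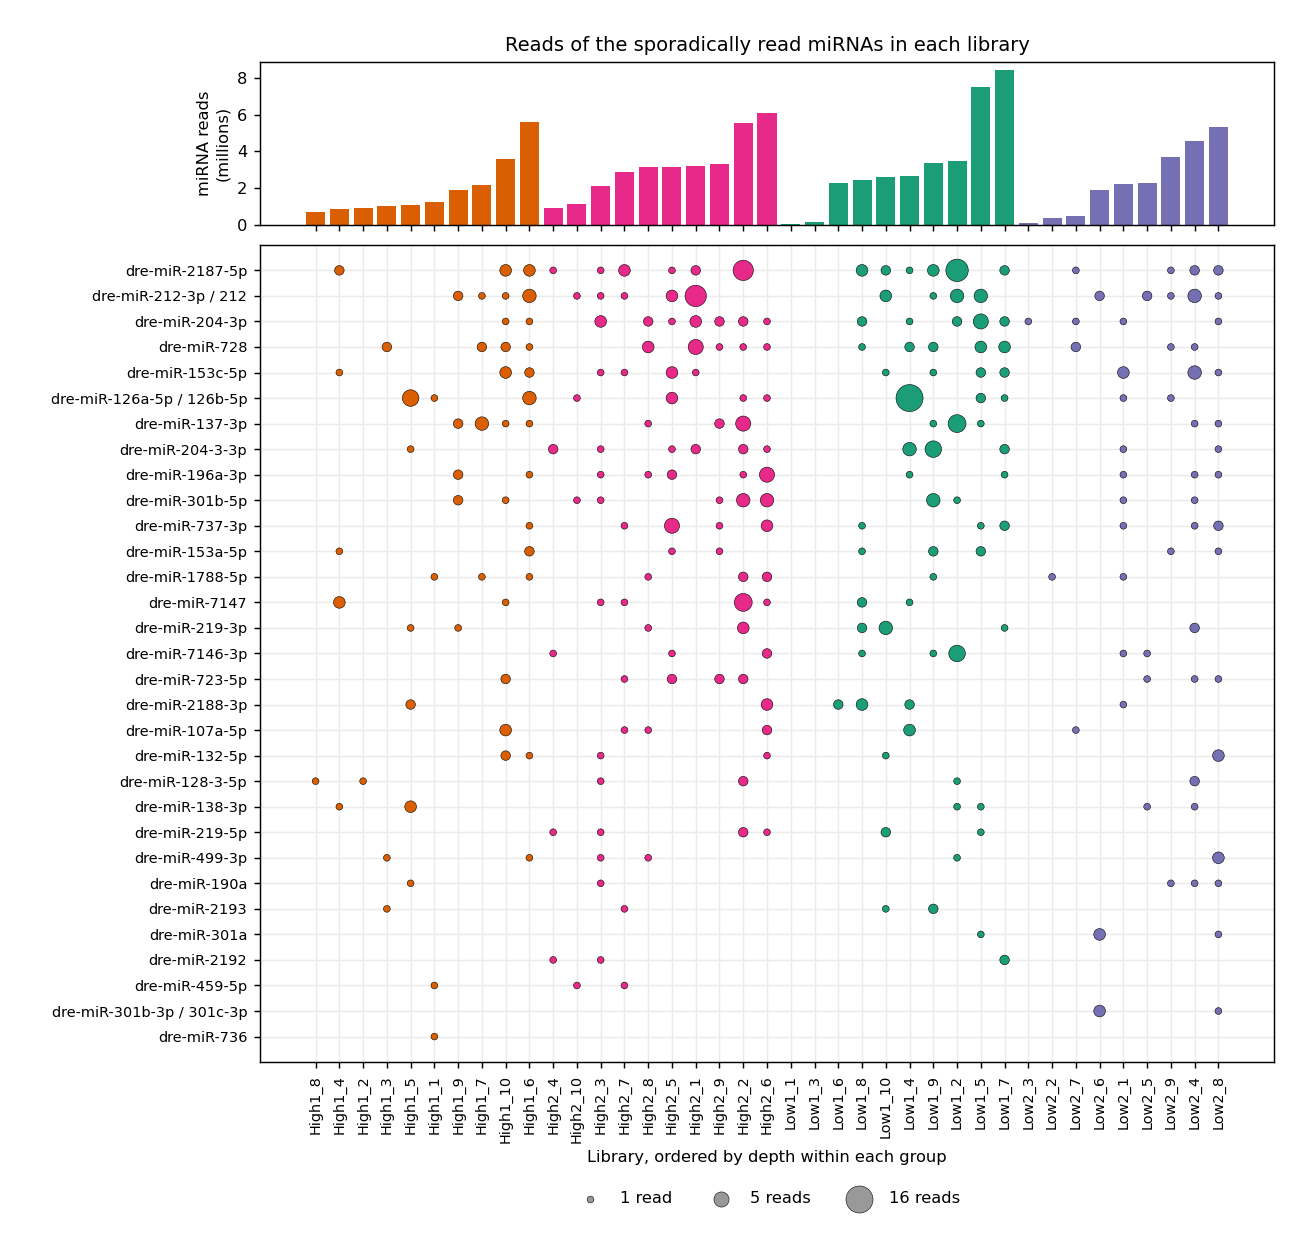
Reads of the 31 distinct members (rows, from most to least often read) in the 39 libraries (columns, by depth within each group, with the miRNA reads of each library as bars), where the area of a point is proportional to its reads. Points grow denser towards the deeper libraries of a group, Low1_1 and Low1_3 have none, and the largest point is the 16 reads of dre-miR-126a-5p in Low1_4.

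Most members with a row for the opposite arm had fewer reads than that arm, by the same read values that the rule used. The names gave 13 members as 5p, 13 as 3p and 8 without an arm. For 25 members the table also held a row for the opposite arm, and 23 of these 25 (92%) had fewer reads than that arm. Among the other rows outside the families, 30 of 78 with such a row (38.5%) had fewer reads than the opposite arm. The 25 comparisons of members were not all separate. In 4 of them the arms of miR-219 and of miR-301b were set against each other. The equal rows dre-miR-126a-5p and dre-miR-126b-5p both counted, and dre-miR-204-3p and dre-miR-204-3-3p shared the opposite row dre-miR-204-5p. Rarely read rows are bound to lose such a comparison more often, so these shares are descriptions without a test.

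The imbalance between arms spanned several orders of magnitude. For dre-miR-128-3-5p, an arm of the neuronal miR-128, there were 8 reads against 2531806 of dre-miR-128-3p, which is 0.000316% of both arms (95% Wilson interval 0.00016 to 0.000624%). This sets the 5p arm of a single gene copy, mir128-3, against a 3p row named without a copy number, and a further row, dre-miR-128-5p, had 4.38 RPM and reads in 37 libraries. Wilson and Poisson intervals given here and below pool the reads of all libraries and cover counting error only, not the spread between libraries. For dre-miR-723-5p there were 12 reads against 188096 of the 3p arm, or 0.00638%. For dre-miR-196a-3p there were 18 reads against 222845 of the 5p arm, or 0.00808%. The miR-196 genes lie within the Hox clusters, whose genes pattern the body axis and are miR-196 targets. For dre-miR-737-3p there were 19 reads against 53270, and for dre-miR-499-3p 8 against 14912. In all, 11 members made up less than 1% of both arms, 18 less than 10%, and the median was 2.07%. The row of the opposite arm was read in all 39 libraries for 10 members. That row can be shared by several gene copies, as for miR-128 and miR-204, and then does not show that the member's own hairpin was present.

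A few hairpins were rare on both sides. For miR-2187 the arms were nearly even, with 53 reads of the 5p arm and 71 of the 3p arm (42.7% 5p, 95% Wilson interval 34.4 to 51.5%), and the member exceeded its partner in 9 libraries. For miR-137, a brain miRNA that regulates neuronal differentiation, the 3p arm had 27 reads and the 5p arm 61. It is the 3p arm that is usually described as the guide in mammals. For miR-219, which promotes oligodendrocyte maturation in mouse and zebrafish, both arms were members, with 15 reads of 3p and 8 of 5p, and only 2 libraries held both. Both arms of miR-301b were members as well, with 21 reads of 5p and 4 of 3p, and no library held both. The related dre-miR-301c-5p, which is no member, had 189 reads against the 4 of dre-miR-301c-3p. In mammals the 3p arm of miR-301 is the commonly described guide, and it shares its seed with miR-130 and miR-454.

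**Figure D2:**
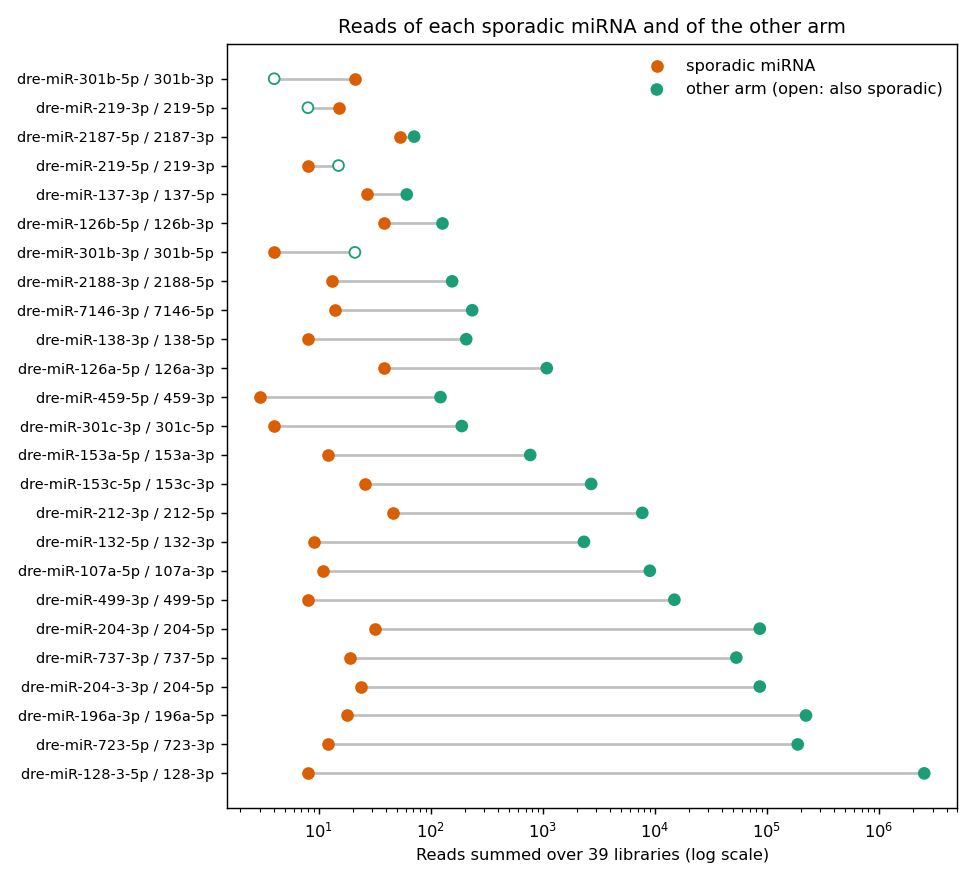
Reads summed over 39 libraries (log scale) of the 25 members with a row for the opposite arm (orange) and of that arm (green, open where it is a member too), ordered by the member's share of both. The distance widens from dre-miR-301b-5p at the top, 1 of only 2 members above their partner, to dre-miR-128-3-5p at the bottom, with 8 reads against 2531806.

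By the lists of miRNA numbers used to group the members, those of neural miRNAs gave 10 of their 32 rows (31.2%), against 34 of 172 (19.8%) for all rows outside the families. Vessel, heart and connective tissue miRNAs gave 5 of 22 rows, numbers listed here as fish numbers 11 of 51, widely expressed families 6 of 50, the Hox miRNA 1 of 5 and liver and gut miRNAs 1 of 10. Rows of equal values were counted separately here. The miR-212 pair falls in the neural list, the miR-126 pair in the vessel list and the miR-301 pair in the widely expressed families. The shares are descriptions without a test.

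Among the neural members, miR-212 and its neighbour miR-132 share a seed and are induced by neuronal activity in mammals. Their genes lie within 10 kb of each other at both copies in the RefSeq annotation of assembly GRCz12tu. In every group dre-miR-212-3p had libraries with 0 reads. Its highest value was 4 reads in High1, 10 in High2, 4 in Low1 and 4 in Low2, with medians of 0, 0.5, 0 and 1 in that order. The 4 groups overlapped, it was read in 18 libraries, and the 10 reads of High2_1 were the most in any library. Its 46 reads amounted to 0.438 RPM (exact Poisson 95% interval 0.321 to 0.585), against 7711 reads of dre-miR-212-5p. At the neighbouring gene the arms were the other way round, and dre-miR-132-5p was the member, with 9 reads against 2326 of dre-miR-132-3p.

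Both sporadic arms of the miR-153 genes were 5p. miR-153 lies inside ptprn2 and ptprna, whose products are proteins of the dense-core secretory vesicle, and in mammals it targets synaptic transcripts. There were 26 reads of dre-miR-153c-5p in 14 libraries, with at most 3 reads in a library of High1, 3 in High2, 2 in Low1 and 4 in Low2, and a median of 0 in each group. There were 12 reads of dre-miR-153a-5p in 9 libraries. The third gene of the family differed from these, since dre-miR-153b-5p had 3599 reads and was read in 38 libraries. Reads of dre-miR-137-3p were spread over 12 libraries and reached 7 in Low1_2, 5 in High2_2 and 4 in High1_7. Low2 had at most 1 read of it in a library, and the groups overlapped. The other neural members were thin: dre-miR-138-3p was read in 6 libraries and in none of High2, and dre-miR-219-5p in 4 libraries of High2, 2 of Low1 and none of High1 or Low2.

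The members of the vessel, heart and connective tissue list were arms of miR-126, miR-204 and miR-499. The name is that of the list and does not give the source of the reads. miR-126 is an endothelial miRNA that sustains vessel integrity, and mir126b lies inside egfl7, an endothelial gene. Its 5p arm had 38 reads in 12 libraries, with 16 in Low1_4, 6 in High1_5, 4 in High1_6 and 3 in High2_5, and at most 2 in any other library. Most reads of this member lay in libraries with high blood markers, an observation made after the values were seen. The 4 libraries of at least 500000 reads with blood sums above 1000 normalised reads were Low1_4, Low1_8, High1_5 and High2_5, with sums of 1088 to 1623 against 283 to 726 in the other 31. They held 8.9% of all miRNA reads but 25 of the 38 reads (65.8%) of dre-miR-126a-5p. Low1_8 was an exception with 0 reads. The guide dre-miR-126a-3p was concentrated mainly in Low1_4, with 527 of its 1083 reads, and had 26 in High2_5. In Low1_8 it had 5 reads, below its median of 7 over all libraries, although the blood sum there was 1461. The epithelial sums of these 4 libraries lay above the median of 32990 over all libraries, from 35870 in Low1_8 to 84920 in Low1_4. Low2_2, which is none of the 4, had the highest (130400). High2_5 had the highest gonad sum of all libraries (17750). The neural sums of Low1_4, Low1_8 and High1_5 lay below the median of 14590, and that of High2_5 (18670) lay above it. Among the members listed under fish numbers, dre-miR-2188-3p had 7 of its 13 reads in the same 4 libraries, and its gene lies inside ank1a, a gene for the ankyrin of the red cell membrane. Other rows were less concentrated there, with 23.9% of the reads of dre-miR-2188-5p, 33.1% of the reads of dre-miR-126b-3p and 16.5% of all distinct member reads. All 7 blood rows were read in some library, and their sums ran from 346 to 1623 in High1, 314 to 1088 in High2, 283 to 2760 in Low1 and 248 to 726 in Low2. The part of blood or of epithelium in these reads was not tested.

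The miR-204 genes lie inside trpm3, trpm1a and trpm1b, channel genes of which trpm1 serves retinal and pigment cells, and miR-204 is known from eye development in medaka. All 3 genes share the abundant dre-miR-204-5p, with 86245 reads, but their 3p arms have rows of their own. For dre-miR-204-3p there were 32 reads in 18 libraries, with a highest value of 1 in High1, 3 in High2, 5 in Low1 and 1 in Low2, and medians of 0, 1.5, 0.5 and 0. For dre-miR-204-3-3p there were 24 reads in 12 libraries, with a highest value of 1, 2, 6 and 1 in the same order. The remaining 3p arm, dre-miR-204-2-3p, lay outside the rule with 1.02 RPM and reads in 29 libraries. Both members were read in more libraries of High2 (7 and 6 of 10) than of High1 (2 and 1 of 10), and High2 was also the group of the highest median depth. The member dre-miR-499-3p, from a myosin gene (myh7ba) active in heart and slow muscle, had 8 reads in 6 libraries.

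Among members listed under fish numbers, dre-miR-2187-5p was the most often read member, with 53 reads in 19 libraries. Its gene lies inside chrm3a, a muscarinic acetylcholine receptor gene. Its lowest value was 0 in each group, and its highest was 3 reads in High1, 9 in High2, 11 in Low1 and 2 in Low2, with medians of 0, 1, 1.5 and 0. Over all libraries this was 0.505 RPM (exact Poisson 95% interval 0.378 to 0.661, without the spread between libraries). The groups overlapped, and the high values were those of Low1_2 and High2_2. The member dre-miR-728 had 33 reads in 17 libraries, with at most 2, 5, 3 and 2 reads in High1, High2, Low1 and Low2. Its gene neighbours that of miR-727, whose arms had 4527 (5p) and 2421 (3p) reads and were read in 39 and 37 libraries. In High2, dre-miR-737-3p reached 5 reads (High2_5), and in all it had 19 reads in 11 libraries. dre-miR-1788-5p, encoded inside fev, a gene for a transcription factor of serotonergic neurons, had 11 reads in 9 libraries, and no library held more than 2. dre-miR-7147 had 17 reads in 8 libraries, of which 7 were in High2_2 and none in Low2, while dre-miR-7146-3p had 14 reads in 8 libraries, of which 6 were in Low1_2 and none in High1. The rarest member, dre-miR-736, had 1 read, in High1_1. Its gene lies inside the cardiac myosin gene myh7.

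Of the widely expressed families, miR-301 gave 4 of the 6 members. Its genes lie near those of miR-130 or miR-454, and these neighbours were read far more often, with 4974 reads for dre-miR-130c-5p, 1724 for dre-miR-130c-3p, 253 for dre-miR-454a and 92 for dre-miR-454b. Reads of dre-miR-301b-3p and dre-miR-301c-3p came from Low2 alone, 3 in Low2_6 and 1 in Low2_8. The 5 reads of dre-miR-301a were 3 in Low2_6, 1 in Low2_8 and 1 in Low1_5. The first 2 of these libraries thus gave the same counts in all 3 rows, and whether single reads were counted under several names cannot be told apart from separate reads in the table. dre-miR-301b-5p, the more abundant arm of its hairpin here, had 21 reads in 11 libraries, 5 of them High2. dre-miR-107a-5p, whose gene lies inside pank1b, which encodes an enzyme of coenzyme A synthesis, had 11 reads against 9004 of its 3p arm. dre-miR-190a had 1 read in each of 5 libraries, whereas dre-miR-190b had 741 reads in 35 libraries.

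How many members a library showed followed its depth. The number read ran from 0 in Low1_1 and Low1_3, with 79435 and 166612 reads, to 17 of 34 in Low2_8, with 5303390. Over the 39 libraries its Pearson correlation with log10 depth was 0.80 and Spearman's rho 0.85. Within the groups Pearson's r was 0.90 in High1, 0.66 in High2, 0.84 in Low1 and 0.83 in Low2. Within 5 runs of consecutive samples in the public record, read here as the sequencing pools, it lay between 0.78 and 0.92. The sample titles name no pool, so this reading is an assumption. These are descriptions over libraries whose counts share the depth on both axes. Low1_6 lay below libraries of like depth, with 2309542 reads and 1 member (2 reads of dre-miR-2188-3p), where Low2_5 showed 5 members at 2306299 reads and Low1_8 showed 9 at 2428161. These libraries were alike in miRNA reads but not in scaling: a single read stood for 1.53 normalised reads in Low1_6, 0.864 in Low2_5 and 0.694 in Low1_8. Low1_7, the deepest library, showed 11.

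**Figure D3:**
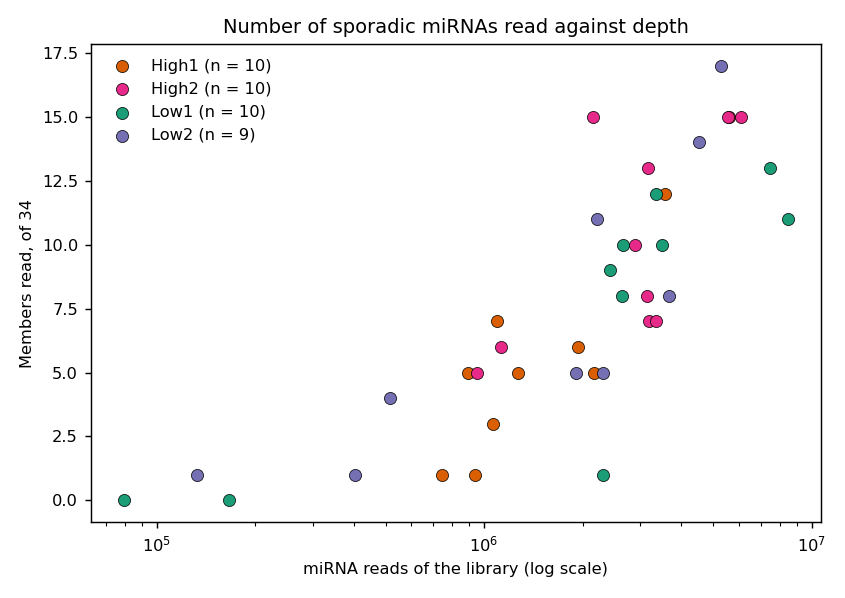
Number of the 34 members read in each library against its miRNA reads (log scale), coloured by group (10, 10, 10 and 9 libraries). The number rises from 0 in Low1_1 and Low1_3 to 17 in Low2_8, and the 4 groups overlap, with Low1_6 (1 member at 2309542 reads) below libraries of like depth.

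By group, a median of 5 members was read in High1 (lowest 1, highest 15), of 9 in High2 (5 and 15), of 9.5 in Low1 (0 and 13) and of 5 in Low2 (1 and 17). Without Low2_6, Low2_7, High1_7 and High1_8 the median was 8 in Low2 and 5.5 in High1. High2 and Low1, with the higher medians, also had the higher median depths (3152946 and 2641870 miRNA reads, against 1182396 in High1 and 2218558 in Low2). At an equal depth of 500000 miRNA reads, the expected number had medians of 2.24 in High1, 2.77 in High2, 2.85 in Low1 and 2.62 in Low2, and ranged from 0.534 to 4.87, 1.43 to 3.96, 0.386 to 4.40 and 1.09 to 3.91. The 4 libraries below that depth were left out of these values. The medians thus lay within less than 1 member of each other, under the spread inside every group (SD 0.893 to 1.36). As shares of their own miRNA reads, the members took a median of 3.93 RPM in High1, 5.47 in High2, 4.20 in Low1 and 4.21 in Low2, with overlapping ranges.

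**Figure D4:**
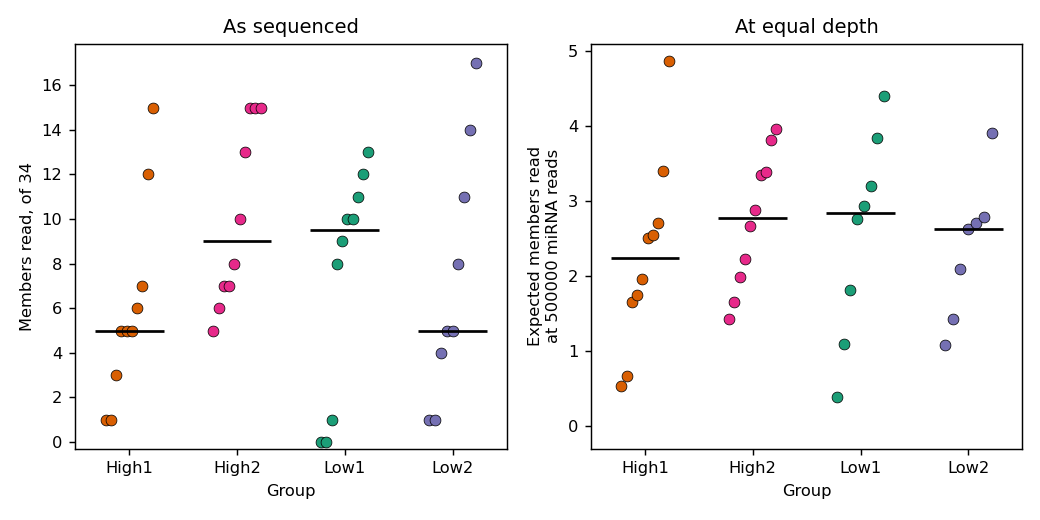
Number of members read per library (left) and the number expected at 500000 miRNA reads (right, 35 libraries of at least that depth) in High1, High2, Low1 and Low2, where each point is a library and the bar is the median. Medians of 5, 9, 9.5 and 5 on the left become 2.24, 2.77, 2.85 and 2.62 on the right.

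To ask whether the detection of a member differed with competition, the share of libraries with a read was compared between the groups by exact tests. These tests took no account of depth, which the number of members read followed and which differed between the groups. Over the 4 groups the exact test (Fisher-Freeman-Halton) called 0 members at an adjusted p under 0.05, as it called 0.0% of all 346 rows. Many of the 346 rows were read in every library, where detection cannot differ between groups. The shares of all rows, here and for High against Low below, are therefore no background for the members. At an unadjusted p under 0.05 there were 2.02% of all rows and 3 members, 2 of them with equal values. These were dre-miR-219-5p (0, 4, 2 and 0 libraries in High1, High2, Low1 and Low2, exact p = 0.0376) and the pair dre-miR-301b-3p and dre-miR-301c-3p (0, 0, 0 and 2 libraries, exact p = 0.0486), each with an adjusted p of 1. dre-miR-723-5p followed, with 1, 4, 0 and 3 libraries (exact p = 0.0825, adjusted p = 1). The groups in which dre-miR-219-5p was read, High2 and Low1, were those of higher median depth, and the part of depth was not tested. The miR-301 pair rests on Low2_6 and Low2_8, and with Low2_6 and the other 3 libraries that stand apart left out no member had an unadjusted p under 0.05 (smallest exact p = 0.0606).

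Between High and Low the two-sided Fisher's exact test called 0 members after adjustment (0.0% of all rows) and 0 before it (1.45% of all rows). The smallest values were those of dre-miR-301a, read in 0 High and 3 Low libraries (exact p = 0.106), and of dre-miR-459-5p, read in 3 High and 0 Low libraries (exact p = 0.231), equal to that of dre-miR-301b-3p. A member read in 3 or fewer libraries could not reach an unadjusted p under 0.05 here, so its outcome was fixed. Under the treatment labels of the public record, dre-miR-219-5p was read in 0 of 20 High and 6 of 19 Low libraries (exact p = 0.00832, adjusted p = 1), whereas by the titles it was read in 4 High and 2 Low libraries. Of all members, 21 were read in all 4 groups, 6 in 3 groups, 4 in 2 groups and 3 in a single group, the latter being dre-miR-301b-3p, dre-miR-301c-3p and dre-miR-736.

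Levels were compared in a limma fit across all 346 rows. In each of the 7 comparisons limma called 0 of the 34 members and 0.0% of all rows at an adjusted p under 0.05. At an unadjusted p under 0.05 it gave 1 member in High2 against Low1 (5.78% of all rows) and 1 in Low2 against High1 (0.867% of all rows). There were 0 members in High1 against Low1 (3.18% of all rows), High2 against Low2 (4.05%), High2 against High1 (6.36%), Low2 against Low1 (6.36%) and the average of High against Low (1.16%). limma-voom on the recovered reads called 0 members and 0 rows after adjustment, and before adjustment 0 members and 0 to 31 of all 346 rows in the 7 comparisons. Its median differences of the members were of other sizes and partly of the other sign, from -0.63 to 0.33. In voom a count of 0 takes a lower value in a deeper library, so these medians cannot be read as levels alone. Median log2 differences of the members were between -0.001 and 0.01, and those of all rows between 0.003 and 0.05. These differences are on the log2 scale after the addition of 4, on which a single read weighs little in a deep library and much in a shallow one.

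The member with an unadjusted p under 0.05 in High2 against Low1 was dre-miR-723-5p, read in 4 of 10 High2 libraries (at most 2 reads) and in 0 of 10 Low1 libraries. Its log2 difference was 0.12 (SE 0.06, limma adjusted p = 0.817). Next to it, dre-miR-2188-3p was read in 1 library of High2 and 3 of Low1, with a difference of -0.15 (limma adjusted p = 0.979). In Low2 against High1, dre-miR-204-3p had a log2 difference of 0.38 (SE 0.17, limma unadjusted p = 0.0297, adjusted p = 0.993). It had 1 read in each of 4 Low2 libraries and 1 in each of 2 High1 libraries. The single read made a log2 value of 4.04 in Low2_3 (133035 miRNA reads) and 3.30 in Low2_7 (515863 reads), but 2.20 in Low2_1 and 2.17 in Low2_8, where 2 stands for no read. Without the libraries below 500000 reads the difference was 0.21 (limma unadjusted p = 0.0998). Without Low2_6, Low2_7, High1_7 and High1_8 it was 0.31 (limma unadjusted p = 0.0978).

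In the main fit, the members with the smallest p in the other comparisons had differences of at most 0.17 in size. dre-miR-301b-3p, whose reads came from 2 Low2 libraries, differed by 0.13 in Low2 against High1 and against Low1, and by -0.13 in High2 against Low2 (limma unadjusted p = 0.0886 in each). Without Low2_6 and the other 3 libraries set apart these differences were 0.025, 0.025 and -0.025. In High1 against Low1 these were dre-miR-128-3-5p (0.13, limma adjusted p = 0.774) and dre-miR-7146-3p (-0.12, limma adjusted p = 0.774). Without the 4 libraries set apart, the difference of dre-miR-128-3-5p was 0.06. In High2 against High1, dre-miR-737-3p differed by 0.15 and dre-miR-138-3p by -0.17 (limma adjusted p = 0.714 for both). Without the 4 libraries set apart, the difference of dre-miR-138-3p was -0.21 (limma unadjusted p = 0.039) and that of dre-miR-737-3p 0.14. With each library centred, dre-miR-737-3p differed by 0.24 (limma unadjusted p = 0.0164) and dre-miR-138-3p by -0.08. With limma-voom the difference of dre-miR-737-3p was -0.02. In High2 against Low2, dre-miR-219-5p differed by 0.09 (limma adjusted p = 0.983), and in Low2 against Low1, dre-miR-301a by 0.11 (limma adjusted p = 0.645), or by 0.01 without the 4 libraries set apart. For High against Low they were dre-miR-459-5p (0.05) and dre-miR-204-3p (-0.16, limma adjusted p = 0.998 for both). A p above the threshold at these depths does not show that the levels were equal, since no library held more than 16 reads of a member.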

How the data were processed

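The authors trimmed adaptors from the small RNA reads (NEBNext kit, Illumina HiSeq2500), aligned them with PatMaN to the mature zebrafish miRNAs of miRBase without mismatch or gap, and counted them. The submitters' processing notes name DESeq2 and GRCz10. As deposited, the values are on a log2 scale: each count was scaled by a factor of its library, 4 was added, and the logarithm was taken, so that 2 stands for no read. Reads were recovered by dividing each normalised value by the smallest positive one of its library, and 13494 of 13494 values came out whole within 0.05 of a read. Of 40 sperm samples, 1 has no column, and the identity of High1_10 is uncertain. The table of piRNA clusters was not used.

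Levels were tested with limma 3.58.1 in R 4.3.3 on the deposited log2 values (1 fit, 4 groups, variance trend, two-sided, Benjamini-Hochberg adjustment over 346 rows, threshold 0.05), and detection with exact tests in Python 3.11.15 with scipy 1.17.1, numpy 2.4.6 and pandas 2.3.3. Plots used matplotlib 3.10.9. The limma fit was tested on simulated data in which only well-read rows were changed, and by a large factor. That simulation does not show what the fit can detect at read numbers as low as those of the members. The exact test of detection was checked against scipy on simulated tables of 2 groups. Samples are individual males, and High1 and Low2, or Low1 and High2, come from the same males. The main limma fit and the exact tests treated the libraries as independent, so their p-values leave out this repeated sampling. Expected numbers at 500000 reads are exact rarefaction. Gene neighbours (all 31 member stems matched) come from RefSeq, assembly GRCz12tu, without regard to strand. Alternatives are given at the end. Low2_6, Low2_7, High1_7 and High1_8 were left out in 1 of them because earlier results of these data had set them apart. The members, lists and tests were chosen with earlier results of these data known. Named members were the 10 with the most reads, the 10 most often read, the 2 with the smallest limma p of each comparison, the 3 with the smallest p of each detection test, those at the limit of the rule and those read in 1 group only. Others were named after their values were seen.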

Additional observations from a re-analysis of the deposited data

Results flagged for a closer look

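In 9 of 32 sets of group values, 1 library lay far from the rest of its group by Dixon's test, which chance gives in about 1 of 20 sets of continuous values and more often for counts this low. Reads of dre-miR-2187-5p were 9 in High2_2 (next 3) and 11 in Low1_2 (next 3). Reads of dre-miR-212-3p were 4 in High1_6 (next 2), 10 in High2_1 (next 3) and 4 in Low2_4 (next 2). For dre-miR-204-3p, Low1_5 had 5 reads (next 2), and for dre-miR-728, Low2_7 had 2 (next 1). Reads of dre-miR-126a-5p were 16 in Low1_4 (next 2) and 3 in High2_5 (next 1). The number of members read and their RPM gave no such library in any group. The limma interaction of treatment and period called 0 of 34 members and 0 of 346 rows at an adjusted p under 0.05, and 0 members and 28 rows at an unadjusted p under 0.05, which does not show that the responses were equal.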

How the results depend on the processing

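No member was called in any alternative of the detection tests, where the adjusted outcome of rarely read members was nearly fixed. Before adjustment, dre-miR-204-3p alone lay under 0.05 over the 4 groups when 2 or more reads counted as detection (exact p = 0.00528). With libraries of 500000 reads or more, 3 members lay under 0.05 (smallest for dre-miR-301b-3p, exact p = 0.0353). Without the 4 libraries set apart there were 0. After adjustment, no member was called in any of 72 alternative limma fits either (7 comparisons under at least 10 alternatives each). Among all rows, 10 were called in High2 against High1 with only libraries of 500000 reads or more, none of them a member. Every High1 and High2 library held that many reads, so the differences of this comparison stayed the same. What changed was the estimate of the spread, which the 4 groups share, since the libraries left out were of Low1 and Low2. The median number of members read per library moved beyond 1 SD at an equal depth of 500000 reads, to 2.77 in High2 and 2.85 in Low1, and in High2 to 2.5 when 2 or more reads counted as detection. The number of members was 30 to 41 under other limits of the rule. Of the 14 differences named for their small p, 7 changed sign or fell to 0 under some alternative, and none passed the adjusted threshold. With each library centred, the median of all rows shifted from 0.01 to 0.11 in High2 against Low2 and from 0.04 to 0.13 in High2 against High1. With limma-voom the members' median was -0.38 in High2 against Low1, -0.63 in High2 against High1, -0.58 in High2 against Low2 and -0.21 in High against Low. The medians of all rows had the opposite sign (0.21, 0.17, 0.18 and 0.08). In voom a count of 0 takes a lower value in a deeper library, and High2 had the highest median depth (3152946 miRNA reads). The members' medians therefore cannot be read as lower levels in High2. How much of the shift came from depth was not tested. The replicate block left 0 members called in High2 against Low1 and 0 in Low2 against High1, and none at an unadjusted p under 0.05 (dre-miR-204-3p in Low2 against High1, limma unadjusted p = 0.106). Same-numbered samples correlated by -0.37 to 0.27 (10 pairs) and by -0.36 to 0.80 (9 pairs), so the numbers were not taken as pairs. The replicate block rests on these numbers and cannot stand in for a test paired by male. Leaving out High1_10, an alternative added after the data were seen, called 0 members. Depth limits these results: no member reached 1 RPM over all libraries.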
